A study of Mus musculus with 12 samples.

Results

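The maxillary prominence, the paired swelling that builds the side of the upper lip and upper jaw, was compared between Neo/Null and Neo/Wt mouse embryos at E10.5. The members of the comparison are the 6 arrays of maxillary tissue among the 12 arrays of the series, 3 of Neo/Null and 3 of Neo/Wt (control) embryos, each hybridized with RNA of an independent pool of embryos, and the other 6 arrays hold nasal prominences of the same genotypes. Neo/Null embryos carried a null allele of *Tfap2a* and, on the other chromosome, the Neo allele, a hypomorph made by leaving a drug selection cassette in an intron of the region that codes for DNA binding. Neo/Wt embryos carried the same Neo allele over a wild-type allele, so that both groups had the hypomorphic allele and the controls were not wild-type. The labels write the control genotype as aflox/wt, and the name Neo/Wt is that of the study. The number of embryos in a pool and the share of exencephalic ones are not given in the sources used here.

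*Tfap2a* encodes AP-2α, a transcription factor of the surface ectoderm and of the neural crest cells that form the facial mesenchyme. The maxillary prominence is a core of neural crest mesenchyme under ectoderm, crossed by vessels and by the maxillary branch of the trigeminal nerve, and it grows under signals of the Fgf, Bmp, Wnt, Hedgehog and retinoic acid families. Markers of facial mesenchyme were present. Of 25 transcription factor genes of maxillary and oral mesenchyme on the array, 22 were called present in both genotypes. *Lhx8*, a homeodomain gene of the upper jaw, had log2 signals of 10.40 to 10.75. Frontonasal and periocular factors were present too, 11 of 13 on the array. These calls therefore do not separate maxillary from nasal tissue. Of 22 genes of forebrain neuroepithelium on the array, 15 were called present in neither genotype, among them *Otx2*, *Six3*, *Rax* and *Pax6*. Globin of embryonic red cells was bright in all 6 pools, with log2 signals of *Hbb-bh1* from 13.25 to 13.44.

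The values are log2 signals, and differences are given as Neo/Null minus Neo/Wt on the log2 scale with their standard error (SE), or as the fold between the geometric means. Tests were made on the 21213 probe sets, of 10313 genes, whose detection call was present in Neo/Null and in Neo/Wt maxillary tissue. The thresholds used below are an unadjusted limma p under 0.05 together with a change of over 1.25-fold. Across all 6 pools 0 probe sets passed the test after adjustment over the 21213, while an unadjusted p under 0.05 was reached by 704 (3.32%) in the higher and 350 (1.65%) in the lower direction. The thresholds were passed by 230 higher probe sets (1.08%) and 66 lower ones (0.311%). Without Neo/Wt pool 3 they were passed by 468 higher (2.21%) and 208 lower (0.981%), and 4 probe sets, all lower, passed the adjusted test (0.0189%). Of the calls on all pools, 172 higher and 54 lower ones were also made in the same direction without that pool, and 0 in the opposite direction. A block for the replicate number on all 12 arrays brought 4 probe sets past the adjusted threshold, and the same block on the maxillary arrays alone brought 0. Those 4 were *Emx2* and *Smoc2* (adjusted p = 0.00621 for both), *Dkk4*, which encodes an inhibitor of Wnt signaling (log2 difference -0.76, adjusted p = 0.0196), and a dimmer probe set of *Alcam* (log2 difference 0.64, adjusted p = 0.0266). *Dkk4* was chosen for mention on its values. Between the 3 pools of either genotype there was no overlap in 6.41% of the tested probe sets in the higher and 5.22% in the lower direction. No overlap was also part of the rule for naming the top genes, so it is no separate support for them. With 1 probe set a gene, an unadjusted p under 0.05 was reached by 2.69% of genes in the higher and 2.02% in the lower direction.

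Neo/Wt pool 3 stood apart from the other 5 pools in genes of nerve cells. *Tubb3*, a tubulin of neurons, had log2 signals of 8.16, 8.50 and 7.89 in Neo/Null pools 1 to 3 and of 7.97, 7.78 and 5.28 in Neo/Wt pools 1 to 3. *Dcx*, a microtubule protein of migrating neurons, had 8.29, 8.58 and 7.87 against 8.15, 7.50 and 5.20. Of 27 genes of differentiating neurons tested, 23 were lowest of all 6 pools in Neo/Wt pool 3, and the list's mean log2 signal there was 6.46 against 7.29 to 7.70 in the others. The shift was not limited to neurons. The mean of 22 maxillary transcription factors was 8.46 in Neo/Wt pool 3 and 8.60 in Neo/Null pool 3, against 8.76 to 8.89 in the pools numbered 1 and 2. In both genotypes pool 3 was thus the lowest pool of these lists, and among the Neo/Null pools, pool 3 was lowest in 22 of the 27 neuronal genes. In bulk tissue fewer cells of a type and less RNA per cell cannot be told apart. How far the low neuronal signal of that pool enters the other differences was not tested. The calls and list tallies below are therefore given with all pools and without Neo/Wt pool 3. That second setting keeps Neo/Null pool 3, which was also low in these lists. It is thus unbalanced, and a larger decrease in it is not a cleaner measure of the genotype difference.

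**Figure D1:**
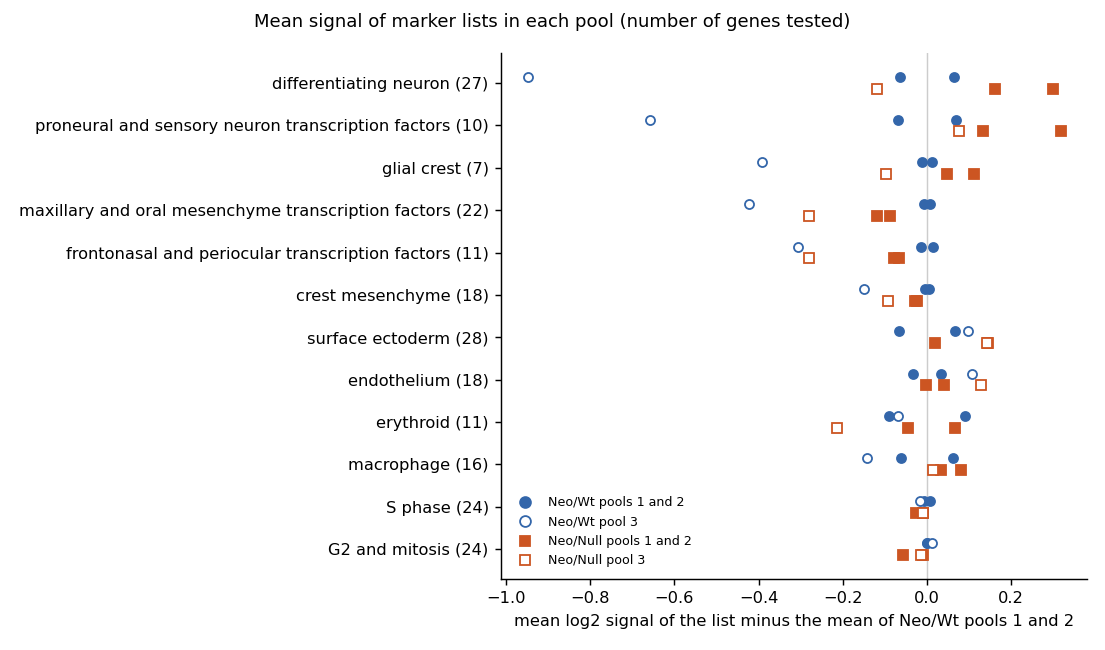
Mean log2 signal of 12 marker lists in each of the 6 maxillary pools, relative to the mean of Neo/Wt pools 1 and 2, with the number of genes tested in parentheses. Neo/Wt pool 3 (open circles) lies to the left in the neuronal, glial and mesenchymal lists, and Neo/Null pool 3 (open squares) is the leftmost Neo/Null pool in each of those lists, while the pools nearly coincide in the lists of the cell cycle.

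Some genes of the retinoic acid pathway were lower in Neo/Null maxillary prominences, and an enzyme that removes retinoic acid was higher. None of them passed the adjusted test in either setting. Retinol enters cells through Stra6, is oxidized to retinoic acid, is carried by the Crabp proteins and binds receptors that act on response elements in target genes. Of 13 pathway genes tested, 3 were above 0 and 10 below, with a median log2 difference of -0.09, beside 42.3% of all tested genes above 0 (42.5% without Neo/Wt pool 3) and a median of -0.02 over all of them in both settings. The thresholds were passed by 3 lower genes and 1 higher gene, where 0.388% of all genes were lower and 0.892% higher past them. Without Neo/Wt pool 3, 4 were lower (1.11% of all genes) and 1 higher (1.59%), and the median was -0.14.

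*Stra6*, the membrane receptor that takes up retinol, had log2 signals of 6.69, 6.27 and 6.05 in the Neo/Null pools and of 6.94, 7.25 and 6.75 in the Neo/Wt pools. All 3 Neo/Null pools lay below all 3 Neo/Wt pools, with a difference of -0.65 (SE 0.16, adjusted p = 0.655) or 0.64-fold, and of -0.76 without Neo/Wt pool 3. *Crabp1*, the cytoplasmic binding protein of retinoic acid, was among the brightest genes, with 11.73, 11.71 and 11.51 against 12.15, 12.15 and 11.85. Here too the groups did not overlap, and the difference was -0.40 (SE 0.10), or -0.50 without pool 3. *Rarb*, a retinoic acid receptor that is itself a target of retinoic acid, had 8.32, 8.44 and 8.25 against 8.95, 8.91 and 8.49. Neo/Wt pool 3 was the lowest control pool of *Rarb* and lay just above the Neo/Null pools, so that the difference of -0.45 (SE 0.11, adjusted p = 0.715) grew to -0.59 without it (adjusted p = 0.0664). *Dhrs3*, which turns retinaldehyde back into retinol, was 0.82-fold (log2 difference -0.29, SE 0.10, unadjusted p = 0.00962) and passed the fold threshold only without pool 3, at 0.77-fold. *Cyp26a1*, the enzyme that degrades retinoic acid, went the other way, with 8.21, 8.20 and 8.34 in Neo/Null and 7.68, 7.71 and 8.15 in Neo/Wt. Its difference was 0.40 (SE 0.13, unadjusted p = 0.0105) and 0.55 without pool 3. *Cyp26a1* lies outside the rule for named genes and was added on its values.

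The other 8 genes of the pathway showed no difference past an unadjusted p of 0.05 on all pools. *Aldh1a3*, which makes retinoic acid in the facial ectoderm, ranged from 7.34 to 9.45 within Neo/Wt and from 7.52 to 8.88 within Neo/Null, the widest spread of the list. Its difference was -0.09 (SE 0.43), with a 95% confidence interval from -1.02 to 0.84, and 0.52 without Neo/Wt pool 3 (unadjusted p = 0.123), so that its sign depended on that pool. *Rarg* was at -0.14 (SE 0.10) with all pools and at -0.26 without pool 3 (unadjusted p = 0.00967), and *Rdh10*, *Rxra*, *Rxrb*, *Crabp2*, *Rbp4* and *Tgm2* lay between -0.11 and 0.13, or between -0.16 and 0.23 without it. In nasal prominences *Stra6*, *Crabp1* and *Rarb* had differences of 0.03, 0.03 and -0.04, while *Cyp26a1* was higher there too, at 0.34 (unadjusted p = 0.0253). Whether a genotype difference itself differed between the prominences was tested on 20153 probe sets present in all 4 groups, and 0 passed after adjustment (735 at an unadjusted p under 0.05), so that none of the genes below is shown to be particular to the maxillary prominence.

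**Figure D2:**
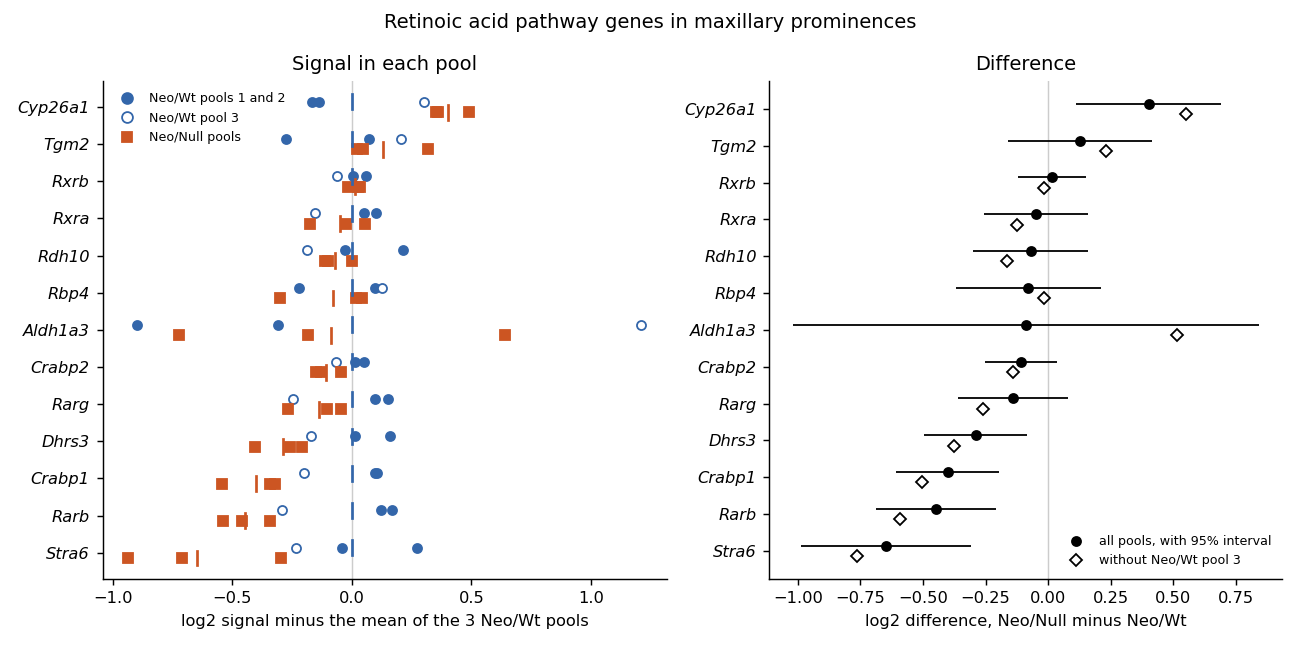
The 13 tested genes of the retinoic acid pathway. The left panel gives the log2 signal of each pool relative to the mean of the Neo/Wt pools, with short bars at the group means, and the right panel the difference with all pools and its 95% confidence interval (filled circles) and without Neo/Wt pool 3 (diamonds). *Stra6*, *Rarb*, *Crabp1* and *Dhrs3* lie on the left and *Cyp26a1* on the right in both settings, while *Aldh1a3* has the widest interval, from -1.02 to 0.84, and changes sign between the settings.

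*Rarb* and *Cyp26a1*, which differed in opposite directions, both hold a retinoic acid response element, a direct repeat of a hexamer with a spacer of 5 bases, just before an annotated start. The sequences are shown because they place the element that retinoic acid receptors are known to bind in 2 of the genes described above. They come from RefSeq promoters of GRCm38.p6, with the hexamers in capitals:

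Rarb: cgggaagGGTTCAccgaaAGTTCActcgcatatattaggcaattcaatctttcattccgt

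Cyp26a1: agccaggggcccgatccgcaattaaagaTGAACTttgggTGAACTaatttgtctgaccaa

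The first lies at chr14:16575477-16575536 on the minus strand, with the element at bases -53 to -37 from the start, and the second at chr19:37697748-37697807 on the plus strand, with the element at -32 to -16. On both strands, 32 of 32851 promoter windows (0.0974%), which run from 250 bases before to 50 bases after a start, hold such a repeat. Of 8408 tested genes with a window, 135 were higher and 39 lower past the thresholds, and 5 hold such a repeat. Of these 5, 1 was lower and 1 higher past the thresholds, *Rarb* and *Cyp26a1*. Both were described above for their values, so this count is no separate support for them.

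*Emx2*, a homeodomain transcription factor known from the forebrain and urogenital tract, showed the largest decrease among probe sets past the thresholds. Its log2 signals were 4.60, 4.75 and 4.23 in Neo/Null and 5.75, 6.34 and 5.41 in Neo/Wt. Every Neo/Null pool was below every Neo/Wt pool, with a difference of -1.31 (SE 0.19, adjusted p = 0.107) or 0.40-fold, and of -1.52 without Neo/Wt pool 3 (adjusted p = 0.0185), where it passed. In nasal prominences the difference was 0.33 (unadjusted p = 0.113). *Emx2* was the 1 called gene of 5 tested from the forebrain list, where 0.388% of all genes were called lower, or 1.11% without Neo/Wt pool 3. *Sox2*, *Hesx1* and *Dmrta2* of that list were at 0.15, -0.17 and -0.23, or at 0.18, -0.01 and 0.09 without pool 3.

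Among transcription factors that pattern the face, *Dlx5*, *Alx1*, *Foxf1* and *Pax3* were lower past the thresholds and *Dmrt2* was higher. Of 11 tested frontonasal and periocular factors 7 were above 0 with a median of 0.05, with 1 called higher and 2 lower, where 0.892% and 0.388% of all genes were called. With Neo/Wt pool 3 left out, 5 were above 0 with a median of -0.0015, and 1 was higher and 4 lower (with *Six2* and *Lmx1b* at 0.77-fold and 0.76-fold), where 1.59% and 1.11% of all genes were called. *Dlx5*, a homeodomain gene of the lower part of the arches, had 6.60, 6.21 and 6.51 in Neo/Null and 6.95, 7.21 and 7.17 in Neo/Wt, a difference of -0.67 (SE 0.13, adjusted p = 0.429) and of -0.64 without pool 3. Of 5 tested genes of the lower arch and of endothelin signaling, 2 were above 0, and 1 without pool 3, and *Dlx5* was the 1 called. Of the others, *Dlx3* and *Gata3* were at -0.15 and -0.16 (-0.16 and -0.18 without pool 3). *Dlx6*, *Hand1*, *Hand2* and *Edn1* were called present in neither genotype. *Alx1*, required for the frontonasal face, had 8.97, 9.06 and 8.91 against 9.65, 9.71 and 9.22. That is 0.69-fold on all pools and 0.62-fold without pool 3, and a second probe set of the gene gave the same difference of -0.54. *Foxf1*, a forkhead gene and Hedgehog target, was 0.71-fold and 0.68-fold without pool 3, again with no overlap. *Dmrt2*, a DM domain factor, had 5.74, 5.80 and 5.61 against 5.45, 5.18 and 5.03, or 1.41-fold and 1.32-fold without pool 3, and was higher in nasal tissue too (0.46, unadjusted p = 0.00579).

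*Pax3*, a paired-box gene of neural crest and frontonasal mesenchyme, was lower mainly against Neo/Wt pools 1 and 2. Its probe set with the smallest p had 5.83, 5.77 and 5.58 in Neo/Null and 6.82, 6.54 and 5.72 in Neo/Wt, where pool 3 lay among the Neo/Null values. The difference was -0.63 with all pools (adjusted p = 0.915) and -0.95 without pool 3 (adjusted p = 0.0185). A second probe set passed the adjusted test too without it, at -0.76, and the remaining 1 went from -0.52 to -0.84. The call of that last probe set was lost without Neo/Null pool 3 (log2 difference -0.31), Neo/Wt pool 1 (-0.33) or Neo/Wt pool 2 (-0.39).

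The 22 tested transcription factors of maxillary and oral mesenchyme had 0 calls on all pools, 10 being above 0 with a median of -0.05. Without Neo/Wt pool 3, 8 were above 0, the median was -0.11, and 4 were lower past the thresholds, where 1.11% of all genes were. *Tbx2*, a T-box repressor, went from -0.32 to -0.52, and *Msx1*, a homeodomain gene of outgrowing mesenchyme, from -0.24 to -0.46. *Lhx6*, which acts with *Lhx8* in the oral mesenchyme, went from -0.16 to -0.52, and *Osr1*, a zinc finger gene of the palate and jaw, from -0.15 to -0.72. In each of these 4 genes Neo/Wt pool 3 was the lowest control pool, as with *Osr1* at 5.64 beside 7.10 and 7.60, and *Osr1* in the Neo/Null pools was 6.95, 6.83 and 6.12. In that setting Neo/Null pool 3, the lowest Neo/Null pool of *Osr1*, was kept. *Lhx6* and *Osr1* were added on their values. *Dlx1*, *Dlx2*, *Prrx1*, *Meis1* and *Meis2*, which mark maxillary mesenchyme, lay between -0.03 and 0.07, and between -0.05 and 0.12 without pool 3.

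Other genes lower past the thresholds with no overlap between the pools are of the matrix, the cell surface and metabolism, with 1 non-coding RNA. *Smoc2*, a calcium-binding matrix protein, had 6.36, 6.21 and 5.72 against 7.0, 7.09 and 6.53, a difference of -0.77 (SE 0.21) and of -0.95 without pool 3. *Dpep1*, a membrane dipeptidase, had 6.55, 6.48 and 6.44 against 7.28, 7.19 and 6.75. Its difference was -0.58 on all pools and -0.74 without pool 3, where it passed the adjusted test (adjusted p = 0.0185). *Itga8*, an integrin of mesenchyme, was 0.75-fold and 0.68-fold without pool 3. *Fabp3*, which binds fatty acids, was 0.72-fold and 0.74-fold without pool 3, and *Crnde*, a long non-coding RNA, 0.78-fold in both settings. *Cyp27a1*, a sterol hydroxylase, was 0.79-fold and 0.77-fold without pool 3, and its call was lost without Neo/Null pool 3 (0.837-fold), Neo/Wt pool 1 (0.806-fold) or Neo/Wt pool 2 (0.8-fold). *Atp5g2*, a subunit of ATP synthase, was called on a dim probe set at 0.80-fold, or 0.79-fold without pool 3, while its bright probe set, at a log2 signal near 12, was at -0.05. That call was lost without Neo/Null pool 2 (0.822-fold) or Neo/Wt pool 2 (0.811-fold).

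**Figure D3:**
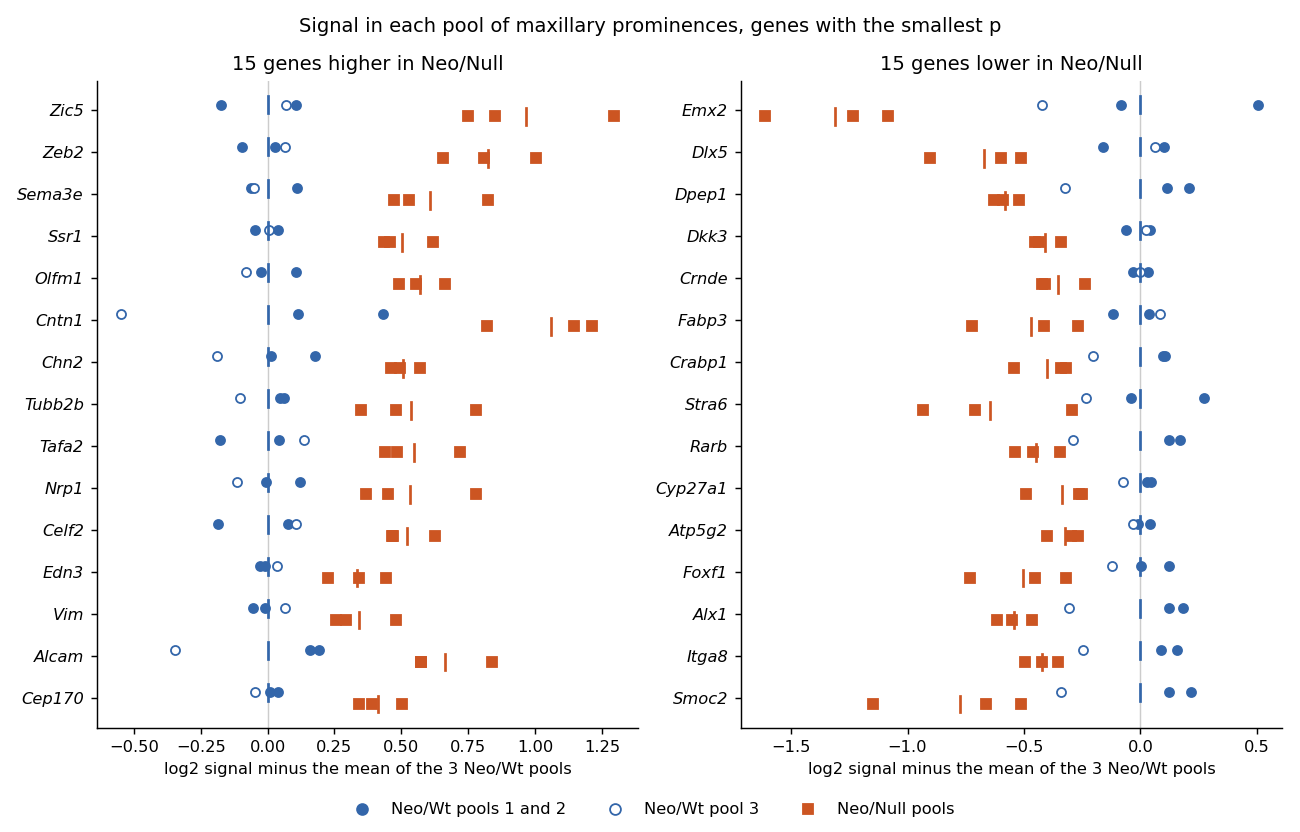
Log2 signal in each pool, relative to the mean of the 3 Neo/Wt pools, for 15 higher and 15 lower genes, ranked by p, that passed the thresholds with and without Neo/Wt pool 3 and showed no overlap between the genotypes. Short bars mark the group means. Neo/Wt pool 3 (open circles) is the lowest control in *Cntn1*, *Alcam*, *Rarb*, *Alx1* and *Smoc2*, and not in *Zeb2*, *Sema3e*, *Dlx5*, *Dkk3* and *Crnde*.

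Among the genes higher in Neo/Null, *Zic5* and *Zeb2* had the smallest p. *Zic5*, a zinc finger gene of the dorsal neural tube and neural crest, had 5.43, 4.99 and 4.89 in Neo/Null and 3.97, 4.25 and 4.21 in Neo/Wt. This is 1.95-fold (log2 difference 0.97, SE 0.12, adjusted p = 0.0571), and 2.00-fold without Neo/Wt pool 3 (adjusted p = 0.0664). In nasal prominences it was at 0.32 (unadjusted p = 0.0246). *Zic1*, *Zic2* and *Zic4* were called present in neither genotype. *Zeb2*, a zinc finger repressor of migrating neural crest, had 4.13, 4.33 and 3.98 against 3.23, 3.35 and 3.39 on a dim probe set, or 1.77-fold (adjusted p = 0.0571) and 1.81-fold without pool 3. All 4 of its tested probe sets were higher at an unadjusted p under 0.05, with the brightest at 0.48 (SE 0.08) on all pools and 0.50 without pool 3. In nasal tissue these 2 probe sets of *Zeb2* were at -0.04 and 0.10. Of 18 tested genes of crest mesenchyme, 8 were above 0 with a median of -0.01, and *Zeb2* and *Cdh2* were called higher and 0 lower. Without Neo/Wt pool 3, 7 were above 0 with a median of -0.09. There the same 2 were called higher, and *Twist2* and *Snai1* lower. Among all genes 0.892% were called higher and 0.388% lower, or 1.59% and 1.11% without that pool.

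Several guidance and adhesion genes were higher past the thresholds. Nrp1 is a receptor of class 3 semaphorins, secreted proteins that steer axons, vessels and crest cells. Of 17 tested semaphorin, neuropilin, plexin, slit and netrin genes, 12 were above 0 in either setting, with a median of 0.07, or 0.09 without Neo/Wt pool 3. Of the 17, 3 (*Sema3e*, *Nrp1* and *Sema3c*) were higher past the thresholds in both settings, where 0.892% of all genes were, or 1.59% without that pool. *Sema3e* had 6.27, 6.21 and 6.56 in Neo/Null and 5.68, 5.85 and 5.69 in Neo/Wt, 1.52-fold on all pools and 1.50-fold without pool 3. *Nrp1* had 8.57, 8.90 and 8.49 against 8.24, 8.11 and 8.0, or 1.45-fold and 1.39-fold. All 4 tested probe sets of *Sema3e* and all 4 of *Nrp1* had differences above 0, from 0.29 to 0.61 and from 0.25 to 0.53. *Sema3c* was 1.27-fold and 1.34-fold without pool 3, and its call was lost without Neo/Null pool 1 or 3 or Neo/Wt pool 1 or 2 (log2 differences 0.31, 0.30, 0.31 and 0.30).

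*Alcam* and *Cntn1*, adhesion proteins of the immunoglobulin family, showed larger differences. *Alcam* had 7.02, 7.28 and 7.02 against 6.60, 6.63 and 6.10, or 1.58-fold on all pools and 1.40-fold without Neo/Wt pool 3, and it was higher in nasal tissue too (0.49, unadjusted p = 0.00596). *Cntn1*, of axons, was 2.08-fold and 1.72-fold without pool 3, with 6.14, 6.21 and 5.81 against 5.42, 5.11 and 4.45. *Cdh2*, N-cadherin, was 1.27-fold and 1.31-fold without pool 3, and its call was lost without Neo/Null pool 2 (1.23-fold) or Neo/Wt pool 2 (1.21-fold). *Efnb2*, a membrane ligand of Eph receptors, was the 1 gene called of 14 ephrin and Eph genes tested. Among all genes 0.892% were called higher, or 1.59% without pool 3. Of the 14, 5 were above 0 with a median of -0.05 (4 and -0.10 without pool 3). *Efnb2* had 9.56, 9.53 and 9.55 against 9.0, 9.31 and 9.18. The gene was 1.31-fold in both settings, and its call was lost without Neo/Wt pool 1 (1.24-fold).

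The endothelin 3 ligand and its receptor, a pair known from crest-derived pigment and enteric cells, were both higher. *Ednrb*, the receptor, had 7.54, 7.77 and 7.38 in Neo/Null and 7.34, 7.10 and 6.85 in Neo/Wt, 1.38-fold on all pools and 1.27-fold without pool 3, while 2 further probe sets were at 0.52 (SE 0.12) and 0.22 (SE 0.23). *Edn3*, the ligand, was 1.26-fold on 1 probe set, with 7.55, 7.44 and 7.65 against 7.18, 7.20 and 7.25, and 1.28-fold without pool 3. That call was lost without Neo/Null pool 3 (1.22-fold) or Neo/Wt pool 1 (log2 difference 0.32, just under the fold threshold), and the other 3 tested probe sets of *Edn3* were at 0.09 to 0.11 with unadjusted p of 0.306 or more. Of 7 tested genes of the glial crest list, 6 were above 0 with a median of 0.14, or 4 with a median of 0.07 without pool 3. *Ednrb* was the 1 called in either setting, where 0.892% of all genes were called higher, or 1.59% without pool 3. Among the other 6, *Erbb3* was at 0.15, and *Metrn*, the 1 gene below 0 on all pools, at -0.15.

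Further genes of this direction are of the cytoskeleton and of secreted proteins. *Tubb2b*, a tubulin of neurons, was 1.45-fold, with 10.16, 10.46 and 10.03 against 9.72, 9.74 and 9.57, and 1.40-fold without Neo/Wt pool 3. *Chn2*, a regulator of Rac, was 1.42-fold, *Olfm1*, a secreted olfactomedin protein, 1.48-fold, *Celf2*, an RNA-binding protein, 1.43-fold, *Tafa2*, a secreted chemokine-like protein, 1.46-fold, and *Cep170*, of the centrosome, 1.33-fold. Without pool 3 these 5 lay between 1.31-fold and 1.53-fold. *Vim*, the intermediate filament of mesenchyme, was 1.27-fold on 1 probe set and 1.30-fold without pool 3, whose call was lost without Neo/Null pool 2 (1.21-fold) or Neo/Wt pool 1 (1.24-fold), while its brightest was 1.12-fold and 1.07-fold.

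Signaling pathways other than retinoic acid held few calls. Among all genes 0.892% were called higher and 0.388% lower, or 1.59% and 1.11% without Neo/Wt pool 3. Of 5 Wnt ligand genes tested, 1 was above 0 with all pools and 0 without Neo/Wt pool 3, with medians of -0.19 and -0.26. *Wnt5b* was the 1 called, at 0.79-fold on all pools and 0.78-fold without pool 3, and its call was lost without Neo/Null pool 2 (log2 difference -0.26) or Neo/Wt pool 2 (-0.31). *Wnt11* was at -0.21 (unadjusted p = 0.0355), *Wnt4* at -0.19 and *Wnt6* at -0.15, or at -0.28, -0.17 and -0.26 without pool 3. Of 28 Wnt modulators and targets 17 were above 0, and 15 without pool 3, with 1 called in each direction, and 1 higher and 4 lower without that pool. *Dkk3*, a secreted protein of the Dickkopf family, was lower, with 6.13, 6.02 and 6.04 against 6.41, 6.51 and 6.49, or 0.75-fold and 0.76-fold without pool 3. *Tcf7l2*, a transcription factor of the pathway, was higher at 1.26-fold and 1.29-fold, a call lost without Neo/Null pool 2 (1.23-fold) or Neo/Wt pool 1 (1.21-fold). *Axin2*, the common readout of canonical Wnt signaling, had 8.07, 7.93 and 7.75 against 8.41, 8.62 and 7.79. It was 0.78-fold on all pools with an unadjusted p of 0.0621, and 0.66-fold without pool 3, where it passed the thresholds together with the Wnt antagonists *Nkd1* and *Nkd2*.

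In the Hedgehog pathway 4 of 11 tested genes were above 0 (3 without pool 3) and 0 passed the thresholds in either setting. *Cdon*, a co-receptor, was closest, with 8.56, 8.45 and 8.40 in Neo/Null and 8.75, 8.72 and 8.76 in Neo/Wt and a difference of -0.28 (SE 0.07, unadjusted p = 0.0023). The groups did not overlap, and the change stayed at 0.83-fold without Neo/Wt pool 3, short of the fold threshold. *Gas1*, another co-receptor, was at -0.15, *Gli1*, a target, at -0.21 (SE 0.13) and *Shh*, the ligand, at 0.09, or at -0.20, -0.28 and 0.03 without pool 3. Of 24 Bmp pathway genes tested, 12 were above 0, and 13 without pool 3. *Bmp5*, a ligand, was the 1 called on all pools, at 1.29-fold and 1.40-fold without pool 3. There *Chrdl1*, a Bmp antagonist, was called too at 1.30-fold. Among all genes 0.892% were called higher on all pools and 1.59% without pool 3. The values of *Bmp5* were 6.71, 6.72 and 6.65 against 6.05, 6.36 and 6.56, and the call was lost without Neo/Wt pool 1 (1.17-fold). Of 8 Fgf ligands and receptors 5 were above 0 in either setting, and *Fgf9*, a ligand of epithelia, was called at 1.31-fold and 1.28-fold. Of 15 Fgf feedback and target genes 11 were above 0 with a median of 0.05, and 0 were called. Without pool 3, 10 were above 0 with a median of 0.02. *Egr1* and *Sos2* were called there, 1 in each direction, where 1.59% of all genes were called higher and 1.11% lower. Of 17 Notch genes 8 were above 0, and 5 without pool 3. Among them *Hey1*, a target, was 1.24-fold and *Jag1*, a ligand, 1.22-fold, both under the fold threshold on all pools. *Jag1* reached 1.29-fold without pool 3.

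*Tfap2a* itself had 3 tested probe sets, whose places relative to the altered exons are not given in the files, so that they check neither the Neo nor the null allele. The brightest *Tfap2a* probe set had 9.22, 9.13 and 9.11 in Neo/Null and 9.11, 9.10 and 9.08 in Neo/Wt. The second had 8.72, 8.62 and 8.64 against 8.54, 8.47 and 8.56. The dimmest had 6.68, 6.59 and 6.57 against 6.97, 6.75 and 6.57, and the differences of the 3 were 0.06, 0.13 and -0.15 with none at an unadjusted p under 0.05. Without Neo/Wt pool 3 the dimmest was at -0.25 (unadjusted p = 0.0417), the other two still being above 0. *Tfap2b*, which encodes the related factor AP-2β, was 1.23-fold higher (unadjusted p = 0.00842), and 1.18-fold without pool 3.

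The known inhibitors of AP-2 factors of the KCTD family were both below the controls. *Kctd1* had 8.50, 8.45 and 8.53 against 8.69, 8.79 and 8.78, a difference of -0.26 (SE 0.07, unadjusted p = 0.00241) with no overlap. *Kctd15* had 9.38, 9.20 and 9.30 against 9.50, 9.57 and 9.42, a difference of -0.21 (SE 0.08, unadjusted p = 0.0175). Neither reached 1.25-fold, and without Neo/Wt pool 3 they were at 0.84-fold each. Of the CITED co-activators, *Cited1* was 0.79-fold, a call lost without Neo/Wt pool 3 or Neo/Null pool 2 (0.827-fold and 0.832-fold), and *Cited2* was at 0.20 (unadjusted p = 0.0518) and at 0.26 without pool 3.

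The AP-2 consensus GCCNNNGGC, which reads the same on both strands, was searched in the same RefSeq promoter windows and is in 16.6% of them. It was found for 2491 of 8408 tested genes with a window (29.6%), for 49 of 135 genes higher past the thresholds (36.3%) and for 10 of 39 lower ones (25.6%). With calls made both with and without Neo/Wt pool 3, the shares were 37 of 100 and 7 of 33. The genes higher on all pools had on average 1.39 windows each and all tested genes 1.28, so more sequence was searched for them. *Edn3* and *Snrnp48* hold matches too, which are not shown, and not every gene described was looked up. Matches in a few chosen genes are shown with 10 bases on either side and the fixed letters in capitals, as descriptions and not as binding sites:

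Zeb2: ggataatgatGCCaaaGGCttgcttgacg

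Ednrb: attgacgtatGCCcttGGCcgctaggtgc

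Cyp26a1: ggggggaggaGCCaggGGCccgatccgca

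Kctd15: ccgaaagcctGCCtttGGCccgggagtcc

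They lie at chr2:45113342-45113370 (minus strand, the match starting at base -81 from the start), chr14:103843878-103843906 (minus, -195), chr19:37697739-37697767 (plus, -59) and chr7:34655658-34655686 (minus, -167). A further 3 matches are in another promoter window of *Kctd15*.

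*Tfap2a* and the 40 coding genes on either side of it on chromosome 13 had 93 tested probe sets. Of these, 4 were higher and 1 lower past the thresholds (1.08% and 0.311% of all probe sets), or 5 and 1 without Neo/Wt pool 3 (2.21% and 0.981%). Those called on all pools belonged to *Ssr1*, *Tubb2b*, *Rnf182* and *Snrnp48*. *Ssr1*, a subunit of the translocon-associated complex of the endoplasmic reticulum, is 12 genes away in the order of GRCm38.p6 and had 9.95, 9.97 and 10.13 against 9.55, 9.46 and 9.52, or 1.42-fold with all pools and without Neo/Wt pool 3. A brighter probe set was at 0.36, 2 others were at 0.07 and -0.23, and in nasal tissue the called ones were at 0.32 and 0.31 (unadjusted p = 0.00254 and 0.000237). *Snrnp48*, a splicing factor, is 8 genes away and was 0.79-fold, with 8.38, 8.29 and 8.42 against 8.68, 8.66 and 8.75, and -0.31 in nasal tissue (unadjusted p = 0.000832). Its call was lost without Neo/Wt pool 3 (0.81-fold) or Neo/Null pool 2 (0.815-fold), and its other 3 probe sets were at 0.03, -0.04 and 0.23. *Slc22a23*, a transporter gene 29 genes away, had opposite signs in the prominences, at -0.29 in maxillary tissue (unadjusted p = 0.0159; -0.31 without pool 3) and 0.24 in nasal tissue (unadjusted p = 0.0388). *Rnf182*, a ubiquitin ligase gene 21 genes away, was at 0.36 and at 0.24 without pool 3, where its call was lost, and *Tubb2b*, described above, is 31 genes away. *Slc22a23* and *Rnf182* were added on their values.

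The tally of neuronal genes in Neo/Null depended on Neo/Wt pool 3. Of 27 genes of differentiating neurons 23 were above 0 on all pools with a median of 0.24, and 6 were higher past the thresholds, beside 42.3% above 0 and 0.892% called higher among all genes. Without Neo/Wt pool 3, 18 were above 0, the median was 0.08, and 2, *Elavl2* and *Elavl4*, were called, beside 42.5% and 1.59% of all genes. *Elavl2*, an RNA-binding protein of neurons, had 8.52, 8.64 and 8.57 against 8.21, 8.27 and 7.93, or 1.36-fold and 1.27-fold without pool 3. *Elavl4*, its relative, was 2.04-fold on all pools and 1.34-fold without pool 3, and its call was lost without Neo/Null pool 2 (1.77-fold, with an unadjusted p over 0.05). *Dcx* was 2.46-fold on all pools and 1.34-fold without pool 3 (unadjusted p = 0.0951), and without Neo/Null pool 1 or 2 its p was 0.0608 or 0.0875. All 11 probe sets over 2-fold higher (0.0519%), of 10 genes, were lowest in Neo/Wt pool 3. Without it none of them was over 2-fold, and 6 still passed the thresholds. In the other direction 1 probe set, that of *Emx2*, was over 2-fold lower (0.00471%).

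Of 10 tested transcription factors of sensory neurons, 9 were above 0 with a median of 0.35 on all pools. Past the thresholds 5 were higher, where 0.892% of all genes were. Without pool 3, 7 were above 0 with a median of 0.23, and 4 were higher and 1 lower, beside 1.59% and 1.11% of all genes. *Nhlh2*, a helix-loop-helix factor, was the 1 of the 5 whose call was lost without that pool, at 2.01-fold and 1.18-fold, with 6.19, 6.56 and 6.12 against 6.37, 5.72 and 3.75. *Neurod1*, a proneural factor, had 7.54, 7.89 and 7.65 against 7.40, 6.99 and 6.02, or 1.85-fold and 1.41-fold. *Ebf1* and *Ebf2*, helix-loop-helix factors also of mesenchyme, were 1.46-fold and 1.28-fold on all pools and 1.42-fold and 1.43-fold without pool 3. The call of *Ebf1* was lost without Neo/Null pool 2 (1.38-fold), and that of *Ebf2* without Neo/Null pool 1 or 3 or Neo/Wt pool 1 or 2 (1.29-fold, 1.24-fold, 1.16-fold and 1.27-fold). *Runx1*, of sensory neurons and blood, had 5.37, 5.08 and 5.19 against 4.53, 4.87 and 5.21, and its call was lost without Neo/Null pool 1 (1.2-fold) or Neo/Wt pool 1 (1.13-fold). *Neurog1*, which acts before *Neurod1*, was at -0.27, and at -0.47 without pool 3 (unadjusted p = 0.0339), where it was the 1 gene called lower.

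**Figure D4:**
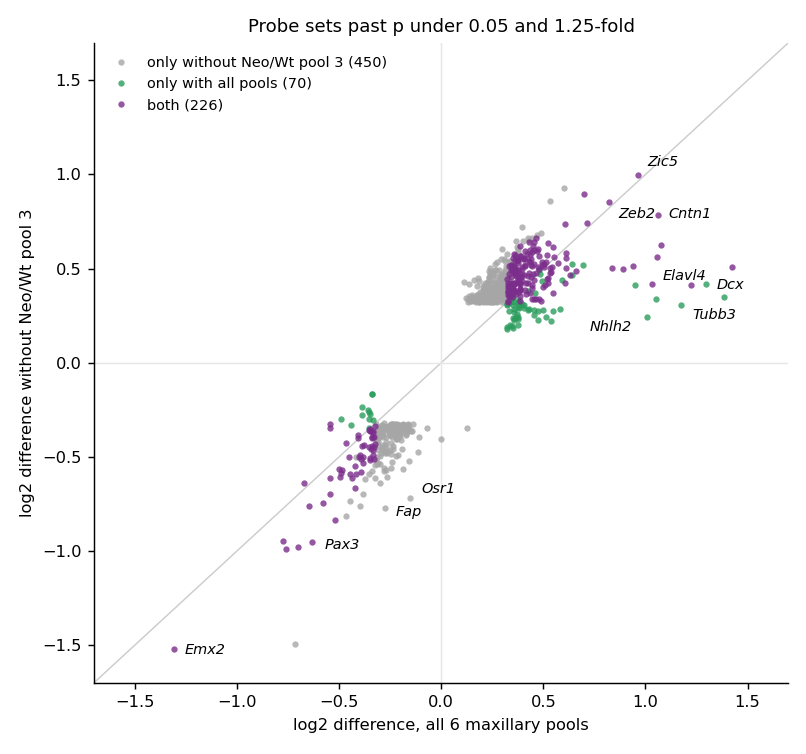
Log2 difference with all 6 maxillary pools against that without Neo/Wt pool 3, for the probe sets past an unadjusted p of 0.05 and 1.25-fold in both settings (172 higher and 54 lower), only with all pools (58 and 12) or only without that pool (296 and 154). Labels mark the probe set of each gene with the smallest p. *Dcx*, *Tubb3*, *Elavl4* and *Nhlh2* lie far below the diagonal, *Zic5*, *Zeb2* and *Emx2* near it, and *Osr1*, *Fap* and *Pax3* are more negative without the pool.

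The genes with the smallest p among those that passed in 1 setting only show what that pool did to the calls. Only with all pools, *Tpbg*, *Uchl1*, *Ckb* and *Trim25* were higher, at 1.25-fold to 1.31-fold, and *Snrnp48*, *Cited1*, *Dnajc1* and *Hapln1* were lower, at 0.76-fold to 0.79-fold. Without pool 3 these 8 were at 1.21-fold to 1.24-fold and at 0.81-fold to 0.85-fold, and all but *Hapln1* kept an unadjusted p under 0.05. *Tpbg* was also lost without Neo/Null pool 3 (1.2-fold), and *Uchl1*, *Ckb* and *Dnajc1* without Neo/Null pool 2 (log2 differences 0.28, 0.32 and -0.27). Only without it, *Zfp991*, *Timm9*, *Lgalsl* and *Zfx* were higher, at 1.27-fold to 1.41-fold, and *Pax3*, *Tril*, *Fap* and *Tbx2* were lower, at 0.58-fold to 0.72-fold, *Pax3* here on the second of the probe sets above. *Fap*, a protease of mesenchyme, had 5.89, 6.20 and 5.63 in Neo/Null and 6.57, 6.80 and 5.19 in Neo/Wt, so that pool 3 was the lowest of all 6. Of the 296 probe sets higher only without pool 3, that pool reached the Neo/Null range in 235, and of the 154 lower only without it, in 132.

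Markers of other cell types held few calls. Among all genes 0.892% were called higher and 0.388% lower, or 1.59% and 1.11% without Neo/Wt pool 3. The lists of endothelium (18 genes tested), erythroid cells (11), platelets (3) and macrophages (16) held 0 calls on all pools, with medians of 0.03, -0.07, -0.05 and 0.11, or 0.04, -0.06, -0.12 and 0.08 without pool 3, where *Ets1* of endothelium was the 1 gene called. Of 28 genes of the surface ectoderm 19 were above 0 with a median of 0.08, and 21 with a median of 0.12 without pool 3. There *Cldn6*, a claudin, went from 1.21-fold to 1.27-fold, *Cdh1*, E-cadherin, was at 0.22 (SE 0.11) on all pools and at 0.29 without pool 3, and *Grhl3*, a grainyhead factor, went from 0.93-fold to 0.76-fold. *Cldn6* and *Grhl3* were thus the genes of the list called without pool 3, 1 in each direction, and *Grhl3* was added on its values. Of the 16 macrophage genes 13 were above 0 and 3 below, or 11 and 5 without pool 3. *Csf1r* and *Mrc1*, of macrophages, were at 0.27 each, with unadjusted p of 0.0147 and 0.0321, and at 0.22 and 0.28 without pool 3. In endothelium *Ets1* was at 0.29 on all pools and 1.33-fold without pool 3. The 4 sex-linked genes tested did not differ past an unadjusted p of 0.05, and *Xist* ranged from 8.85 to 10.07 in Neo/Null and from 9.47 to 10.30 in Neo/Wt.

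Genes of the cell cycle lay close to 0 in a narrow range. Of 24 S phase genes 7 were above 0 with a median of -0.03, and of 24 genes of G2 and mitosis 4 were above 0 with a median of -0.02, both against 42.3% of all genes above 0 and a median of -0.02. Leaving out Neo/Wt pool 3, 7 and 8 were above 0 with medians of -0.03 in both lists. In G2 and mitosis 0 had an unadjusted p under 0.05, and the 4 with the smallest p, *Ccnb2*, *Kif23*, *Bub1b* and *Kif20a*, were at -0.10 to -0.09, and at -0.14 to -0.08 without pool 3. *Ccne2*, a cyclin of the entry into S phase, was the exception, with 8.56, 8.78 and 8.57 against 8.09, 8.15 and 8.45, or 1.33-fold, and 1.43-fold without Neo/Wt pool 3. The kinase inhibitors *Cdkn1a* and *Cdkn1b* were at 0.29 and 0.22 (unadjusted p = 0.0355 and 0.0396), under the fold threshold on all pools. Without pool 3 *Cdkn1a* passed it, at 1.29-fold, and *Cdkn1b* was 1.22-fold. *Eda2r*, a p53 target of the same list, was called there too, at 1.32-fold, and was added on its values.

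**Figure D5:**
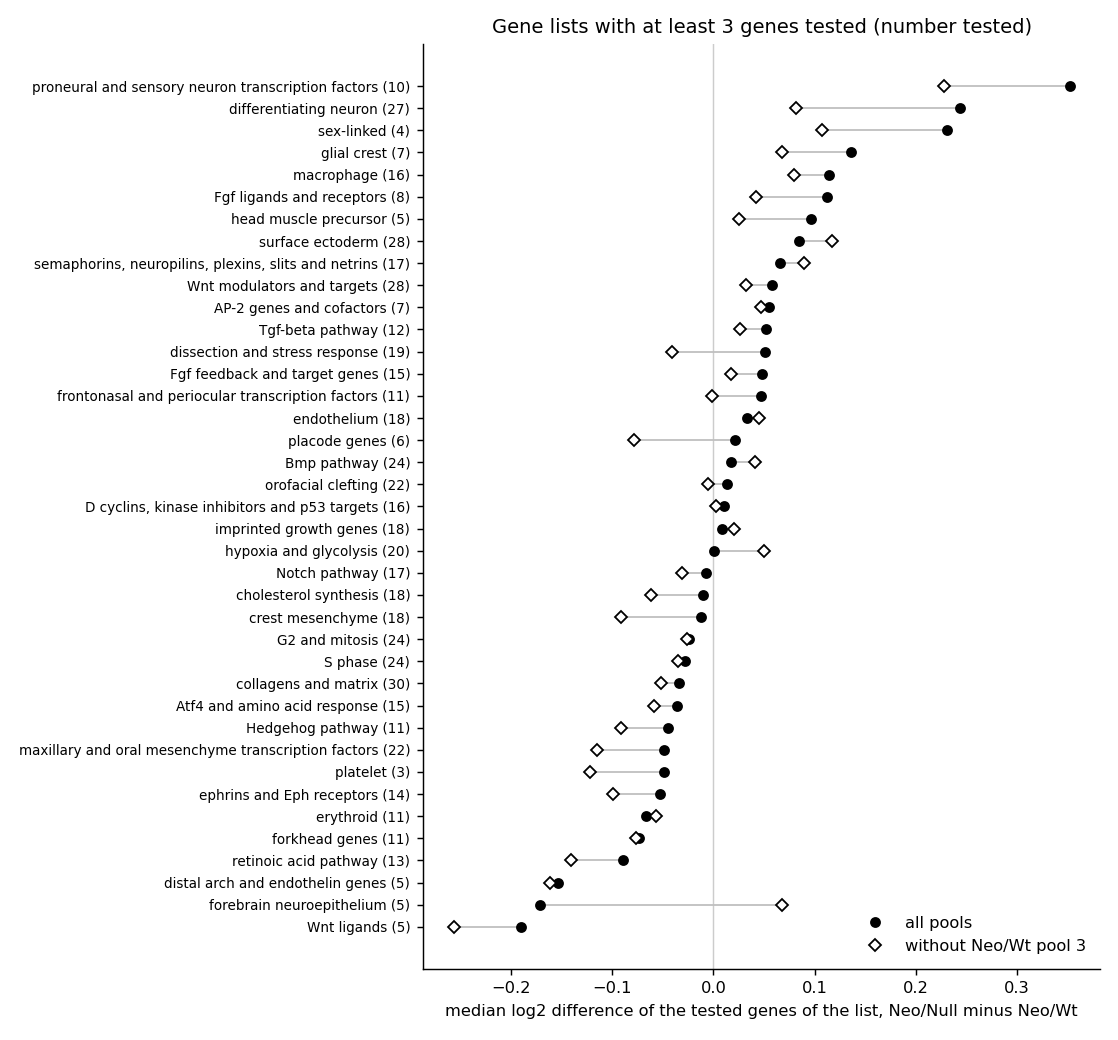
Median log2 difference, Neo/Null minus Neo/Wt, of the tested genes of each list with at least 3 genes tested, with all pools (filled circles) and without Neo/Wt pool 3 (diamonds). The neuronal lists stand farthest to the right with all pools and move left without that pool, the Wnt ligands and retinoic acid genes lie left of 0 in both settings, and the lists of the cell cycle lie near 0 in both.

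Outside the tested set, 216 probe sets had opposite detection calls, 156 being present in Neo/Null and absent in Neo/Wt and 60 the reverse. Of the 216, 9 also passed an unadjusted p under 0.05 and 1.25-fold, 7 of the first kind and 2 of the second. In the tested set 1.08% of probe sets were higher and 0.311% lower past these thresholds. The 216 were selected by calls that differ between the genotypes, so the 2 sets are not comparable. *Elavl3*, another RNA-binding protein of neurons, was called present only in Neo/Null, at 1.31-fold, and 1.20-fold without Neo/Wt pool 3. *Clip2*, a microtubule protein, was called present only in Neo/Wt, at 0.76-fold and 0.71-fold. Both were picked on their values.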

How the data were processed

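RNA of pooled E10.5 facial prominences was hybridized to Affymetrix mouse arrays, 3 pools for each of 4 groups. The log2 signals per probe set were deposited by the authors after scaling between arrays. Whether the Affymetrix signal algorithm or another summary made them is not settled by the sources used here, and no offset or floor is stated. Detection calls, deposited as a score of 1 (present), 0 (variable) or -1 (absent), were made by the authors per group and not per array. The 12 value columns repeated in the table of calls, equal to the values used, were left out. Of 45037 probe sets other than the 64 controls, 34945 had 1 gene symbol, 932 several and 9160 none, in the platform annotation.

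Group means were fitted over all 12 arrays in limma 3.58.1 (R 4.3.3) with eBayes, which left 8 residual and 4.72 prior degrees of freedom, and p-values were adjusted by Benjamini-Hochberg over the 21213 probe sets present in both maxillary groups. Replicates are separate pools. Arrays give no read depth, and 3 pools a group limit the precision. A gene in a list is represented by 1 probe set, and a probe set can share sequence with related genes. The step was tested on simulated data. Tables and plots were made in Python 3.11.15 with pandas 2.3.3 and matplotlib 3.10.9.

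Genes were named by rule: the 15 of smallest p in each direction that passed the thresholds with and without Neo/Wt pool 3 and had no overlap, the 4 of smallest p in each of 41 lists, the 4 per direction called in 1 setting only, and *Tfap2a*. Other genes in the text were added on their values or as examples of a list. The members and lists were chosen with earlier results of these data known. Same-numbered pools of the 2 genotypes had deviations from their group means that correlated at 0.17, 0.24 and 0.49. Neo/Null pools 1 and 2 correlated slightly more with the other control number (0.19 and 0.25), so a pairing by number is uncertain. The main fit held no block for the number, and the block was run as an alternative. Alternatives changed the arrays in the fit, the block, the scaling, the filter, an offset, the variance model, array weights, and each pool left out.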

Additional observations from a re-analysis of the deposited data

How the results depend on the processing

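Of the 57 probe sets of named genes past the thresholds, none reversed under any alternative run. All 57 kept their call with the replicate block on all 12 arrays, without a filter and with probe sets present in at least 1 group, and 33 kept it with an offset of 32 added to the linear signal, which shrinks the change of dim genes by construction. With that offset 77 probe sets were higher and 25 lower, in place of 230 and 66. Without a filter 157 were lower, since more probe sets were tested, and with array weights 122 were lower, where the cause was not tested. Leaving out 1 pool at a time gave 211 to 468 higher and 59 to 208 lower, both highest without Neo/Wt pool 3. The count past the adjusted threshold, 0 in the main analysis, was 4 with the replicate block on all 12 arrays, 2 with arrays centred on the median, 3 with probe sets present in at least 1 group, 1 with the offset, 11 with a variance trend and robust estimation, 4 with array weights, and 0 to 4 with 1 pool left out. The cause of these differences was not tested. The replicate block gave 259 higher and 78 lower on all 12 arrays and 281 and 81 on the 6 maxillary arrays, within 1.5 times the unblocked counts. *Zic5* and *Zeb2* passed the adjusted threshold in several of these settings, and *Emx2* with the block, the trend, the weights and without Neo/Wt pool 3. Of 656 list medians under the alternatives, 12 moved by more than the spread between pools. With 3 pools a group, changes near 1.25-fold and dim probe sets are the least certain.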
